A study of Mus musculus with 2 samples.

Results

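The complement and coagulation factors described here are 38 genes of the mouse liver transcriptome, 20 of the complement system and 18 of blood coagulation, chosen by gene symbol from a list of names, with no measured value in the rule. All 38 were found among the 45777 gene symbols of the deposited table, and all 38 had at least 10 read counts in at least 1 library, as did 15857 genes in all. The study asked what the long noncoding RNA Wee1-AS does in the fatty liver, and RNA sequencing was used to compare livers that received it with livers that did not. Both libraries came from the liver of C57BL/6 mice that were fed a high-fat diet for 18 weeks from 7 weeks of age and were injected retro-orbitally with an adeno-associated virus (AAV) at week 13 of the diet, 5 weeks before sampling. The AAV-GFP library, the control, carried a virus coding for green fluorescent protein, and the AAV-Wee1-AS library carried a virus coding for Wee1-AS. The virus was of serotype 9 with the CMV promoter, which is not specific to hepatocytes, so both groups share the diet and a viral vector, and there was no uninjected or low-fat group among the libraries analysed here. The submitters gave the number of liver samples as 4, while 2 libraries were analysed here. Each group is 1 library, and whether a library holds 1 mouse or a pool, and of which sex, is not given in the sources used here. Wee1-AS itself was not analysed here.

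With 1 library per group, the spread between mice cannot be estimated, so no difference below carries a test or a p-value. Each log2 ratio (AAV-Wee1-AS over AAV-GFP) compares the scaled read counts of those 2 libraries. It is given with a 95% interval (Clopper-Pearson) for counting error only. The interval takes the estimated counts as independent reads. It can be too narrow, because amplified reads are not independent molecules. The libraries held 55466182 counts (AAV-GFP) and 48079335 counts (AAV-Wee1-AS). The members took 3.51% and 3.92% of them, or 1947810 and 1886835 counts. Of the 38 members, 37 reached 1000 counts in each library, and the lowest count was 431. Counting error, computed in this way, was therefore small for these genes, while the spread between animals is unknown. In bulk tissue, fewer cells of a type and less RNA per cell cannot be told apart.

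Complement is a cascade of plasma proteins that is started by antibody, by lectins that bind microbial sugars or by spontaneous turnover of C3, and that ends in a pore assembled from C5, C6, C7, C8 and C9. Coagulation is a second protease cascade, in which vitamin K-dependent enzymes and their cofactors generate thrombin, thrombin turns fibrinogen into fibrin, and plasmin later dissolves it. Hepatocytes make most of the plasma proteins of both cascades, while properdin, C1q and factor D come largely from other cells.

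Of the 38 members, 26 had a higher scaled count in the AAV-Wee1-AS library and 12 a lower one, beside 49.5% and 50.5% of all genes kept. A ratio above 2 was found for 10 members, beside 22.2% of all genes kept, and a ratio below 0.5 for 0 members, beside 8.71% of all genes. Among genes that reached 1000 counts in each library, which include 37 of the 38 members and all 10 of these, 9.2% were above 2 and 2.61% below 0.5. The 10 members were Hc, C8a, C8b and C9 of complement and F9, Pros1, F11, Klkb1, F5 and F13b of coagulation. The counting interval lay wholly above 1 for 25 members, beside 39.1% of all genes, and wholly below 1 for 12, beside 38% of all genes. Such intervals narrow with depth, and the shares among genes of at least 1000 counts in each library were not counted. Only Cfd had an interval that included a ratio of 1. In the contrast of the 2 systems, the median log2 ratio of the 20 complement members was 0.19, with 13 higher and 7 lower. That of the 18 coagulation members was 0.48, with 13 higher and 5 lower. These medians were -0.017 and 0.27 with upper-quartile scaling, and 0.10 and 0.24 with the GC and length trends removed. As reported, the median over all 38 members was 0.23, beside -0.02 over all genes kept, whose middle 50% ran from -0.56 to 0.87. Scaling by the upper quartile shifted the median of all genes by -0.20. It left 20 members higher and 18 lower, with a changed sign for Masp2, Mbl1, Cfd, F7, Kng1 and Plg. Of the 10 members above 2 it kept 7, without C8b, F11 and F5. F5 was not above 2 with library totals or FPKM either, and neither F5 nor Klkb1 was with the length trend removed. With the dependence on GC content and transcript length removed, 1 member stayed above 2 and 14 changed sign, namely C1s1, C4b, Masp2, C8g, F2, F10, Proc, F12, Klkb1, Kng1, F5, Fgb, Cpb2 and Vtn.

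**Figure D1:**
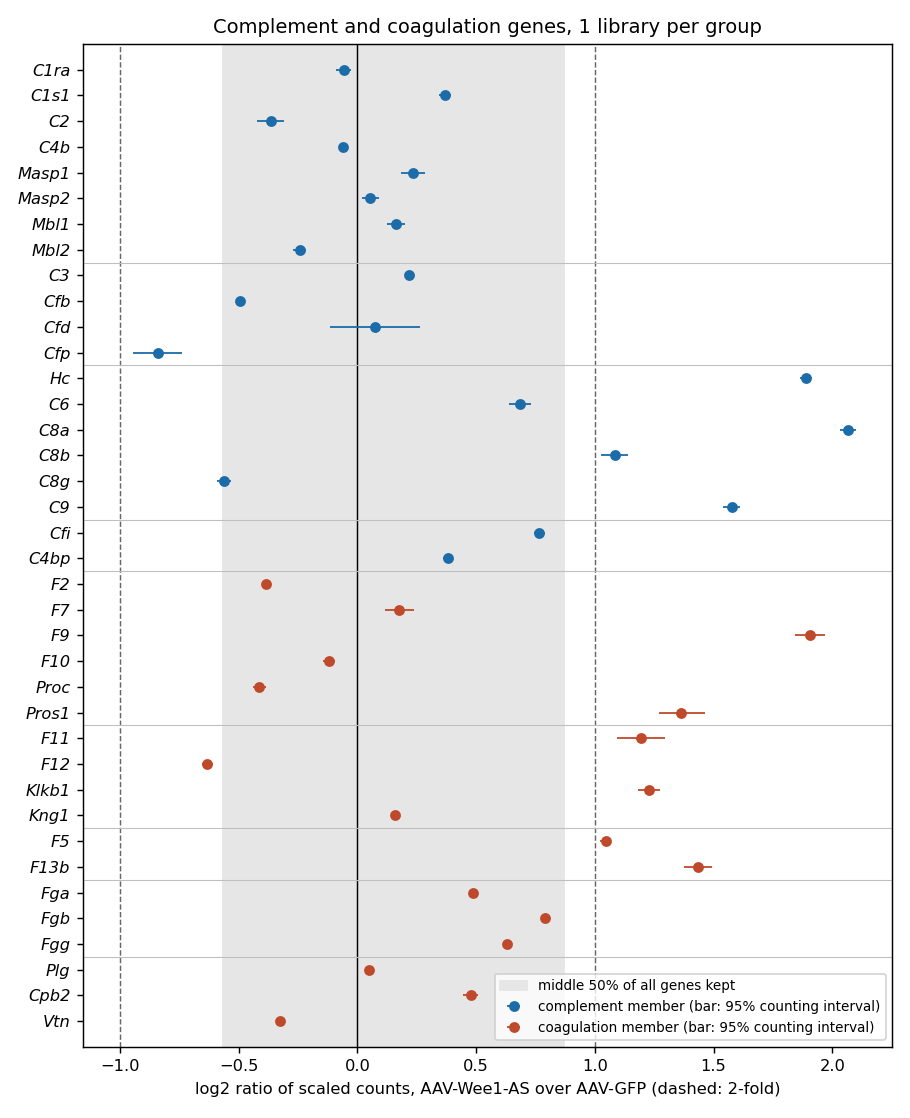
Log2 ratio of scaled counts, AAV-Wee1-AS over AAV-GFP, for the 38 members ordered by role (grey lines part the roles). Points are genes, bars are 95% counting intervals from 1 library per group, the grey band is the middle 50% of all genes kept and dashed lines mark 2-fold, with Hc, C8a, C8b and C9 standing apart from the earlier complement steps.

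The terminal complement genes, whose products form the membrane attack complex, included the highest ratio of the list. Hc, the mouse gene of complement C5 (chr2:34983329-35068506, mm10), had 16883 counts in the control and 52123 after AAV-Wee1-AS, a log2 ratio of 1.89 (interval 1.87 to 1.92). C8a, the alpha chain of C8 (chr4:104815679-104876487), had 8946 and 31165 counts, a log2 ratio of 2.06 (2.03 to 2.1), the highest of the 38 and at percentile 94.2 of all genes. C9, the subunit that polymerizes into the pore (chr15:6445346-6498825), had 8727 and 21674 counts, a log2 ratio of 1.58 (1.54 to 1.61). These 3 genes were each higher in the AAV-Wee1-AS library by about 3-fold or more. C8b, the beta chain of C8, had 3904 and 6892 counts (log2 ratio 1.08, interval 1.03 to 1.14), and C6, which binds activated C5, had 6246 and 8361 counts (0.68, 0.64 to 0.73). C8g, the gamma chain of C8 (chr2:25498650-25501777), went the other way, with 28101 and 15860 counts (-0.56, -0.59 to -0.53). Summed over the 6 terminal genes, the counts were 72807 and 136075, and the median log2 ratio was 1.33. C7, the remaining component of the pore, is not a member and had only 52 and 66 counts.

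The 3 chains of C8 are joined in 1 protein, and the measured proportions of their transcripts differed between the libraries. Per length, C8g was the most abundant chain in both libraries, at 418 and 274 FPKM (fragments counted per kilobase of transcript and per unit of library size). C8a stood at 39.6 and 161 FPKM and C8b at 27.1 and 55.5 FPKM. The level of C8a relative to C8g was therefore 0.0947 in the control and 0.586 after AAV-Wee1-AS. C8a relative to C8b was 1.46 and 2.90, although C8a and C8b are neighbours on chromosome 4, on opposite strands with 11130 bases between them. C9 and Hc differed less from each other, with a C9 level of 1.33 times that of Hc in the first library and 1.07 times in the second. Hc relative to C3, which feeds it through the C5 convertase, was 0.0400 and 0.128. With the GC and length trends removed these genes lay closer together, with log2 ratios of 1.45 for C8a, 0.84 for C8b and 0.02 for C8g, and of 0.76 for Hc and 0.27 for C3.

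The sequence before the start of these genes is shown because Hc, C8a and C9 had the highest ratios of complement and C8g the opposite one. The RefSeq table (GRCm38.p6) holds such sequence for 30 of the 38 members, and the 200 bases before each annotated start were searched on both strands for 4 sets of letters. The letters TATAAA are those of the classical core promoter element. GTTAAT is the single arm of the palindromic site of HNF1, a hepatocyte transcription factor. CAAAGT is a core of sites for HNF4, a nuclear receptor of hepatocytes. TTGCNNAA is a core of sites for the C/EBP factors. Matches are in capitals, in either orientation, and none of those printed overlaps another. The windows are chr2:35061413-35061612 (minus strand) for Hc, chr4:104876399-104876598 (minus) for C8a, chr15:6445146-6445345 (plus) for C9 and chr2:25500507-25500706 (minus) for C8g, whose other annotated start is not shown.
Hc: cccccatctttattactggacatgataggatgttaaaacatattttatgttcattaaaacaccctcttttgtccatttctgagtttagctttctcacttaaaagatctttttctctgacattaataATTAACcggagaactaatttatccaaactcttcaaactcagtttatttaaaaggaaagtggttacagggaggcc
C8a: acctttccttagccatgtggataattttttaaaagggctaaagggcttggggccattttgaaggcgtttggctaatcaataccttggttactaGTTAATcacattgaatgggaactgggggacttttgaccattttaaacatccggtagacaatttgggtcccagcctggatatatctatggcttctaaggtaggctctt
C9: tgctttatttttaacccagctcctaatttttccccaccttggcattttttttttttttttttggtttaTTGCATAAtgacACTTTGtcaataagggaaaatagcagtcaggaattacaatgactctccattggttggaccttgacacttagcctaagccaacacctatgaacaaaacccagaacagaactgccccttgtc
C8g: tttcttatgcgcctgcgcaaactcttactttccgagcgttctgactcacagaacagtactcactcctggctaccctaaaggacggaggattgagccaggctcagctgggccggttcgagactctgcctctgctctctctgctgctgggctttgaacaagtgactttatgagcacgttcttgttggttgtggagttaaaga
Positions count back from the annotated start (-1 is the base before it) to the first printed base of the match. GTTAAT or its complement lay at -74 in Hc and at -107 in C8a. The C9 window held TTGCNNAA at -132 and CAAAGT, as its complement, at -120, and the C8g window held none of the 4. GTTAAT was found in 9 of the 30 members with a window and in 5.09% of all 32505 promoters of the table, TTGCNNAA in 7 and 7.5%, CAAAGT in 4 and 9.92%, and TATAAA in 2 and 9.88%. A match describes the letters in the window and does not show that a factor binds there. The members with GTTAAT lay on both sides of a ratio of 1, since they included Hc, C8a and F13b but also Cfp, C1ra and Vtn.

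The 8 genes that start the classical and lectin pathways had log2 ratios between -0.37 and 0.37, a median of -0.0019, and none passed 2-fold. C1s1, a protease of the first component, had 27694 and 29796 counts (log2 ratio 0.37, interval 0.35 to 0.39), while its partner protease C1ra had 17368 and 13899 (-0.06, -0.09 to -0.03). With the GC and length trends removed C1s1 stood at -0.11 and C1ra at -0.01. Curated variants 1 and 2 of C1s1 had log2 ratios of 0.62 and -0.18. C4b, cleaved by C1s, had 140451 and 112059 counts (-0.06, -0.07 to -0.05). C2, the protease part of the C3 convertase, was lower, with 6317 and 4083 counts (-0.37, -0.42 to -0.31). Of the mannose-binding lectins, Mbl2 had 23055 and 16219 counts (-0.24, -0.27 to -0.21). Mbl1 had 10926 and 10185 (0.16, 0.12 to 0.20), which turned to -0.54 on FPKM, and the proteases that bind to them, Masp1 and Masp2, had log2 ratios of 0.24 and 0.05. C1ra, C1s1 and C4b have near-identical neighbours, C1rb, C1s2 and C4a, so the division of reads between the copies is uncertain. C4a had 10370 and 8554 counts (-0.01), close to the ratio of C4b.

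C3, the protein on which all starting pathways converge, was the most abundant complement transcript per length, at 1209 FPKM in the control and 1353 FPKM after AAV-Wee1-AS. Its counts were 392670 and 380270, the largest of the 38 members, and its log2 ratio was 0.22 (0.21 to 0.22). Cfb, the protease that joins C3 in the alternative pathway convertase, was lower, with 104230 and 61640 counts (-0.49, -0.51 to -0.48). Its level relative to C3 was 0.514 in the first library and 0.311 in the second. Cfb lies 87 bases from C2 on chromosome 17 on the same strand, and both genes were lower. Their log2 ratios were -0.11 (Cfb) and -0.04 (C2) where the GC and length trends were removed. Cfp, which codes for properdin, the stabilizer of that convertase, had the lowest log2 ratio of the list, -0.84 (-0.95 to -0.74), from 2393 and 1112 counts, at percentile 12.6 of all genes. Cfd, the factor D protease that adipocytes make in quantity, had 492 and 431 counts, and its interval (-0.12 to 0.26) included 0. The defining adipocyte genes Adipoq, Lep and Plin1 were at or near 0, with 2 and 2 counts for Adipoq and 0 in both libraries for the others. Of the 8 listed adipocyte genes 3 were kept, Car3 (109071 and 124917 counts), Cidec (7683 and 1236) and Fabp4 (399 and 408), none of them limited to adipocytes.

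Properdin is made by myeloid cells, and markers of such cells differed between the libraries too. Of 8 listed genes of monocyte-derived macrophages, 6 had a ratio below 0.5 and 0 a ratio above 2, beside 8.71% and 22.2% of all genes, and their summed level was 64.8 FPKM in the control and 47.1 FPKM after AAV-Wee1-AS. By the same limits, 3 of 7 Kupffer cell genes had a ratio above 2 and 0 below 0.5, at a summed 192 and 147 FPKM, with 7220 and 5418 counts for Clec4f, which defines that cell. Of 6 listed neutrophil genes 4 were kept, 2 of them below 0.5, at a summed 7.45 and 3.62 FPKM, and Ly6g was at 0 in both. The C1q chains, made by macrophages, were lower as well, with log2 ratios of -0.91 for C1qa, -1.01 for C1qb and -1.03 for C1qc. With the GC and length trends removed these values were -0.08, -0.24 and -0.34, and that of Cfp was -0.15. In the macrophage list 5 of 8 genes were then below 0.5, with a median of -1.31, and in the Kupffer list 1 of 7 was above 2, beside 7.88% below 0.5 and 6.61% above 2 over all genes in that setting. The part of these cells in the ratio of Cfp was not tested.

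Among regulators, Cfi, the protease that inactivates C3b and C4b, had 24059 and 34069 counts (log2 ratio 0.77, 0.74 to 0.79). C4bp, a cofactor of factor I, had 33578 and 36474 (0.38, 0.36 to 0.40). Removal of the GC and length trends put Cfi at 0.39 and C4bp at 0.10. C4bp turned to -0.96 where the longest transcript set those trends. On its most abundant transcript alone, Cfi stood at 1.92.

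**Figure D2:**
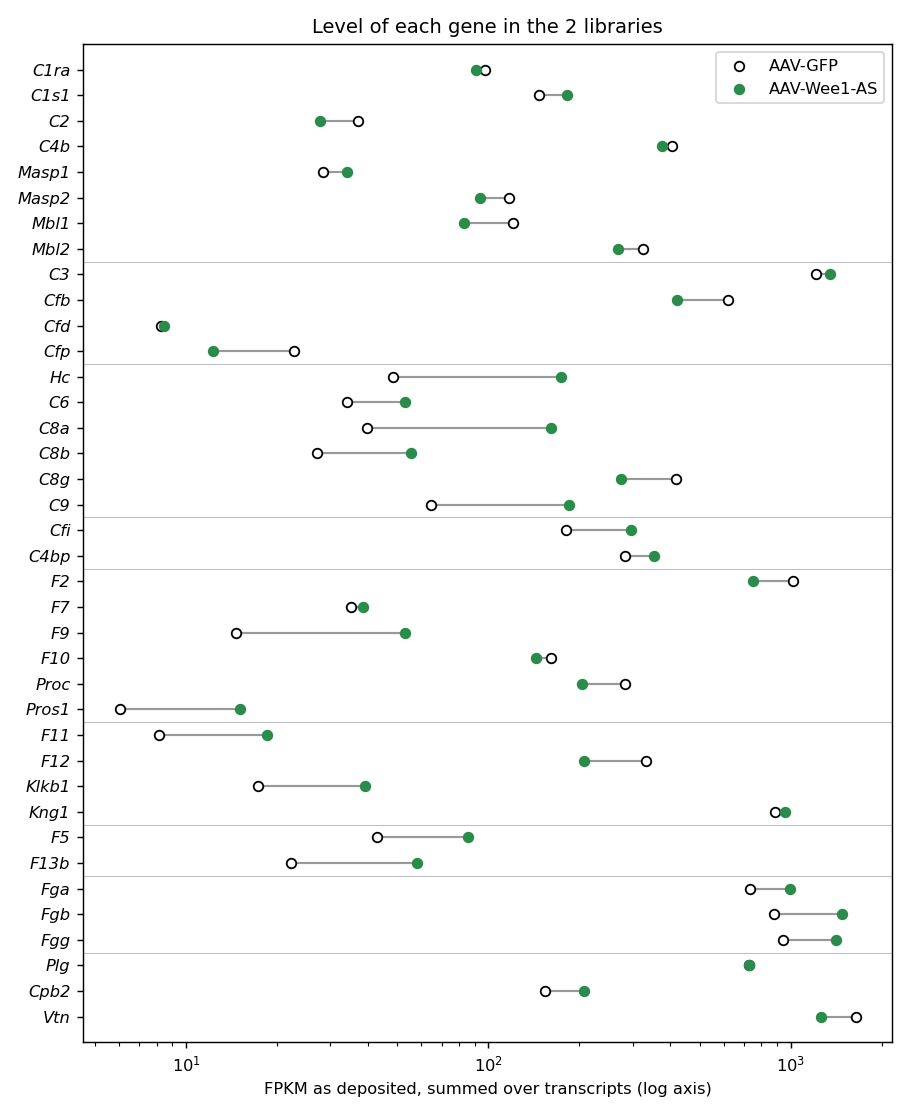
Deposited FPKM, summed over the transcripts of each gene, for AAV-GFP (open) and AAV-Wee1-AS (green) on a log axis, for the 38 members ordered by role. The levels run from 6.05 FPKM (Pros1) to 1640 FPKM (Vtn) in the AAV-GFP library, and the long connecting lines belong to Hc, C8a, C9, F9 and other genes of modest level.

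The vitamin K-dependent genes code for proteases and a cofactor that need gamma-carboxylation to bind membranes, and they divided into higher and lower members. F9, the protease missing in haemophilia B (chrX:59999329-60030760), had 2546 and 7949 counts, a log2 ratio of 1.91 (1.84 to 1.97). Pros1, protein S, the cofactor of activated protein C (chr16:62854307-62929346), had 1285 and 2759 counts (1.36, 1.27 to 1.46). F2, prothrombin, was lower, with 132922 and 84903 counts (-0.38, -0.40 to -0.37). Proc, protein C, was lower by a similar amount, with 29397 and 18386 counts (-0.41, -0.44 to -0.39). Its anticoagulant partner Pros1 and Proc itself thus lay on opposite sides of 1. This contrast was lost where the GC and length trends were removed, with Pros1 and Proc both at 0.29. F10, which converts prothrombin, had 27889 and 21398 counts (-0.12, -0.14 to -0.09). F7, the partner of tissue factor, had 4264 and 4016 counts (0.18, 0.11 to 0.24), and it lies 1498 bases from F10 on chromosome 8. The level of F9 relative to F10 was 0.0905 in the control and 0.369 after AAV-Wee1-AS, while with the GC and length trends removed their log2 ratios lay closer, at 0.54 and 0.15. That of F2 relative to Proc was 3.58 and 3.69. The 6 genes had a median log2 ratio of 0.03.

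In the contact system, which starts clotting on negatively charged surfaces and releases bradykinin, the 2 neighbouring protease genes F11 and Klkb1 had nearly the same ratio. Their match was lost where the GC and length trends were removed, with log2 ratios of 0.71 for F11 and -0.15 for Klkb1. F11, factor XI (chr8:45240659-45262055), had 1229 and 2344 counts (log2 ratio 1.19, 1.1 to 1.3). Klkb1, plasma prekallikrein (chr8:45266688-45294835), had 5820 and 11363 counts (1.23, 1.18 to 1.28), and it lies 4632 bases from F11 on the same strand. F12, the factor XII protease that activates both, was lower, with 42166 and 22674 counts (-0.63, -0.65 to -0.61). With the GC and length trends removed F12 stood at 0.11, the opposite sign. Kng1, the kininogen from which bradykinin is cut, had 113965 and 105999 counts (0.16, 0.15 to 0.17), with the division of reads from its relative Kng2 uncertain. Kng2 had a log2 ratio of 0.03. With the trends removed Kng1 stood at -0.14 and Kng2 at -0.33.

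F5, the cofactor of factor Xa, had 20528 and 35285 counts (chr1:164151835-164220277, log2 ratio 1.05, 1.02 to 1.07). F13b, the carrier subunit of the enzyme that crosslinks fibrin (chr1:139501547-139523758), had 3401 and 7652 counts (1.43, 1.38 to 1.49). With the GC and length trends removed F5 stood at -0.11 and F13b at 0.23. With the length trend alone removed F5 stood at 0.11. The catalytic partner of F13b, F13a1, not a member and mainly a product of blood cells, had 29 and 20 counts.

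The 3 fibrinogen genes, which lie together on chromosome 3 and code for the 3 chains of 1 protein, were all higher, with log2 ratios below 1, although Fgb turned to -0.26 with the GC and length trends removed and Fgg to -0.24 where the longest transcript set those trends. Fga had 158120 and 184392 counts (log2 ratio 0.49, 0.48 to 0.50), Fgb 96955 and 139459 (0.79, 0.78 to 0.80) and Fgg 103471 and 133525 (0.63, 0.62 to 0.64). Their intervals did not overlap. Together they took 358546 and 457376 counts, 0.646% and 0.951% of the libraries. Relative to Fgb, the level of Fga was 0.829 in the control and 0.673 after AAV-Wee1-AS, and that of Fgg was 1.07 and 0.956. By FPKM, Fgb ranked 6 among the members in the control and 1 after AAV-Wee1-AS. The 200 bases before each start are shown because the 3 genes are adjacent and their ratios lay close together, in windows chr3:83025953-83026152 (plus strand) for Fga, chr3:83049864-83050063 (minus) for Fgb and chr3:83007524-83007723 (plus) for Fgg, with the letters searched above in capitals.
Fga: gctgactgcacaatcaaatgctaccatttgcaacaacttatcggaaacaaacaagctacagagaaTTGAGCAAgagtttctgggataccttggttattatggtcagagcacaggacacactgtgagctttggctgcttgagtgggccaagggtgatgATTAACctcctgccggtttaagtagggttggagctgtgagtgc
Fgb: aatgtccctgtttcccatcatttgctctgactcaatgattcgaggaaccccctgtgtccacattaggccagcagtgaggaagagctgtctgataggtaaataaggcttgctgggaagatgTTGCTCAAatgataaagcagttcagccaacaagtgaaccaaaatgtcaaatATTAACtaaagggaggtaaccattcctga
Fgg: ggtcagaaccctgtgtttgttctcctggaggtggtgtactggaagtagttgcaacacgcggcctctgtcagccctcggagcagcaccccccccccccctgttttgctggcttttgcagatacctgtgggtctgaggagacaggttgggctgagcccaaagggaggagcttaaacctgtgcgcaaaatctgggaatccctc
Fga and Fgb each held GTTAAT in its complementary form, at -43 and -29, and TTGCNNAA, at -135 and -80. Fgg held none of the 4 sets of letters, and its log2 ratio lay between those of the other 2 genes.

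In fibrinolysis, Plg, the plasmin precursor, had 129162 and 111293 counts (log2 ratio 0.05, 0.04 to 0.06) and 728 FPKM in both libraries. Cpb2, which protects fibrin from plasmin, had 14650 and 16985 counts (0.48, 0.45 to 0.51). Vtn, the adhesion protein vitronectin, which also binds the forming membrane attack complex, had 184269 and 122323 counts (-0.33, -0.34 to -0.32). With the GC and length trends removed Plg stood at 0.30, Cpb2 at -0.30 and Vtn at 0.31, so Cpb2 and Vtn changed sign.

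Levels per length ran from 6.05 to 1640 FPKM in the control and from 8.45 to 1474 FPKM after AAV-Wee1-AS. In the AAV-GFP library the highest members by FPKM were Vtn (1640), C3 (1209), F2 (1016), Fgg (942) and Kng1 (885). In the AAV-Wee1-AS library they were Fgb (1474), Fgg (1409), C3 (1353), Vtn (1263) and Fga (992). The lowest in the first library were Pros1 (6.05), F11 (8.15) and Cfd (8.27), and in the second Cfd (8.45), Cfp (12.2) and Pros1 (15.1). The order of neighbouring genes cannot be tested, since the spread between mice is unknown.

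The log2 ratios of the members followed the base composition of their transcripts. Across the 38 members, the Spearman correlation of the log2 ratio with the GC content of the transcript was -0.86, and it was -0.69 across the 15109 genes with a GC value, with genes of 1 pair of libraries as the points and so no independent replicates. For the 20 complement members it was -0.80, and for the 18 coagulation members -0.93. The 19 members with a GC content below the members' median were all higher in the AAV-Wee1-AS library, 10 of them above 2-fold, with a median of 1.05. Of the 19 above it, 7 were higher and 12 lower, 0 passed 2-fold, and the median was -0.12. The shares of all genes on either side of that GC value were not counted, so shares by class of GC content are given instead. The 5 members with a GC content below 44% (C9, F9, Pros1, Klkb1 and F13b) all had a ratio above 2, as did 64.8% of all genes in that class, and their median was 1.43 beside 1.37 for the class. Of the 4 members at 56% or above (Cfd, Cfp, Proc and F12), 0 had a ratio above 2, beside 1.22% of the class, and their median was -0.52 beside -0.66. Between 44% and 46%, 1 of 4 members (Hc) was above 2, beside 43.0% of genes. Between 46% and 48%, 3 of 9 were (C8a, F11 and F5), beside 29.2%. Between 48% and 50%, 1 of 4 was (C8b), beside 17.1%. The part of base composition in these ratios was not tested.

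**Figure D3:**
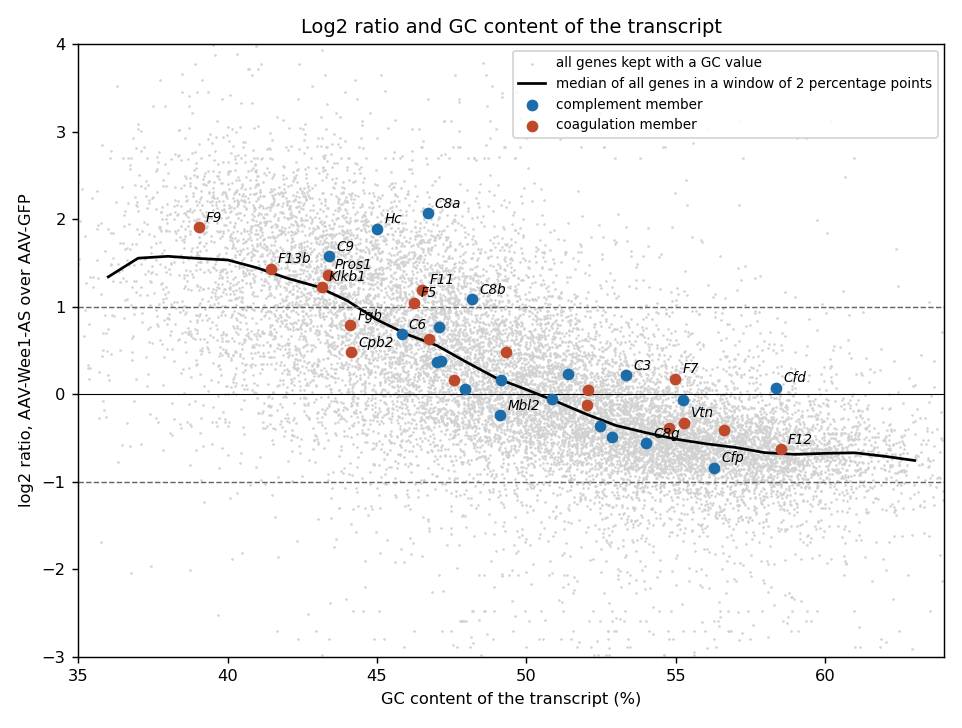
Log2 ratio, AAV-Wee1-AS over AAV-GFP, against GC content of the transcript, for all genes kept with a GC value (grey, with 209 of 15109 points outside the axes) and the members (blue, complement; red, coagulation). The black line is the median of all genes in a window of 2 percentage points, and Hc, C8a and C8b lie above it while C6, F13b, Klkb1 and F12 lie near it.

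When the dependence of the ratio on GC content and on transcript length, as fitted over all genes, was removed, the median log2 ratio of the 38 members was 0.17, beside -0.0040 over all genes, with 26 members higher and 12 lower (49.7% of all genes were higher). C8a alone kept a ratio above 2 (log2 ratio 1.45) and 0 members had one below 0.5, beside 6.61% and 7.88% of all genes. Among genes that reached 1000 counts in each library, 1.84% were then above 2. All 6 terminal complement genes were then above 0, with a median of 0.70: C8a, C8b at 0.84, Hc at 0.76, C9 at 0.64, C6 at 0.03 and C8g at 0.02. All 6 vitamin K-dependent genes were above 0 as well, from 0.15 for F10 to 0.78 for F7, with F9 at 0.54. Among the contact genes F11 stood at 0.71 and Klkb1 at -0.15, so these neighbours no longer matched. F5 stood at -0.11 and F13b at 0.23. The fibrinogen genes were at 0.39 (Fga), -0.26 (Fgb) and 0.25 (Fgg). Cfd, at 0.89, was then among the highest members, from the lowest counts of the list. Complement members had a median of 0.10 and coagulation members of 0.24. For 4 of the 38 members (Mbl1, C4bp, Fga and Fgb) the transcript used for GC content differed in length by over 1.3 times from the most abundant deposited one, which adds to the uncertainty of their adjusted values. The choice of transcript mattered for others too. With the longest transcript of each gene in its place, C4bp stood at -0.96, Fgg at -0.24 and Masp1 at -0.32, the opposite sign for all 3.

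**Figure D4:**
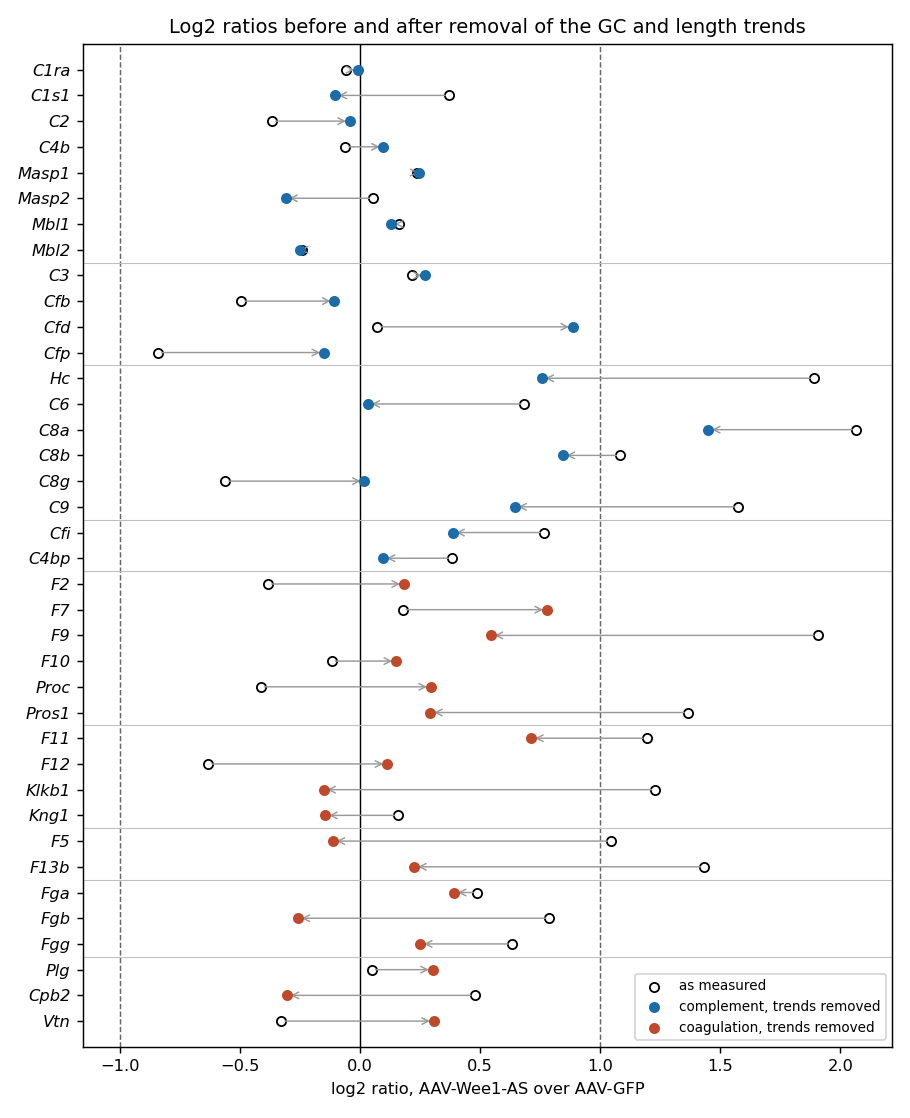
Log2 ratio of each member as measured (open) and after removal of the fitted dependence on GC content and transcript length (filled; blue, complement; red, coagulation), with dashed lines at 2-fold. Most arrows point towards 0, C8a stays above 2-fold, and 14 members cross 0.

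The deposited counts are estimates per annotated RefSeq transcript, and 27 members had counts on more than 1 transcript. Of the 17 members with at least 2 transcripts of over 1000 counts in a library, 8 had transcripts whose log2 ratios differed by more than 1. The same share over all genes was not counted, so whether 8 of 17 is unusual for such estimates was not tested. For Cfi, predicted variant X1 had 5558 and 17574 counts, and curated variant 2 had 6661 and 1990, although these variants differ little in length (2064 and 2074 bases). For Cfb, the lower total came mainly from predicted variant X1, with 75930 and 33963 counts (log2 ratio -0.90), and predicted variant X2 was lower too (-0.48). Curated variants 1 (18066 and 17051, log2 ratio 0.18) and 2 (8475 and 9574, 0.44) went the other way after scaling. For Mbl2, curated variant 1 had 21564 and 12625 counts and predicted variant X1 1098 and 3366. For Masp1, curated variant 1 had 4460 and 3112 counts and variant 2, the other splice form, had 2039 and 3243, so the 2 forms went in opposite directions. Masp2 variant 2, the short form of 744 bases, had 3166 and 1451 counts, and the full protease form of 3061 bases had 9087 and 9593. For Mbl1, the curated transcript of 923 bases had 6498 and 3134 counts and a predicted one of 5853 bases had 4428 and 7051. A predicted Masp2 variant of 3275 bases had 955 and 377 counts. The summed FPKM, which divides each transcript by its length, was lower in the AAV-Wee1-AS library for both genes (117 and 93.7 FPKM for Masp2, 121 and 82.9 FPKM for Mbl1), while the summed counts gave log2 ratios of 0.05 and 0.16. In contrast, C8a was higher on each of its 3 curated transcripts, with log2 ratios from 2.00 to 2.53. Overlapping transcripts share reads, so these divisions are estimates with no error attached.

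**Figure D5:**
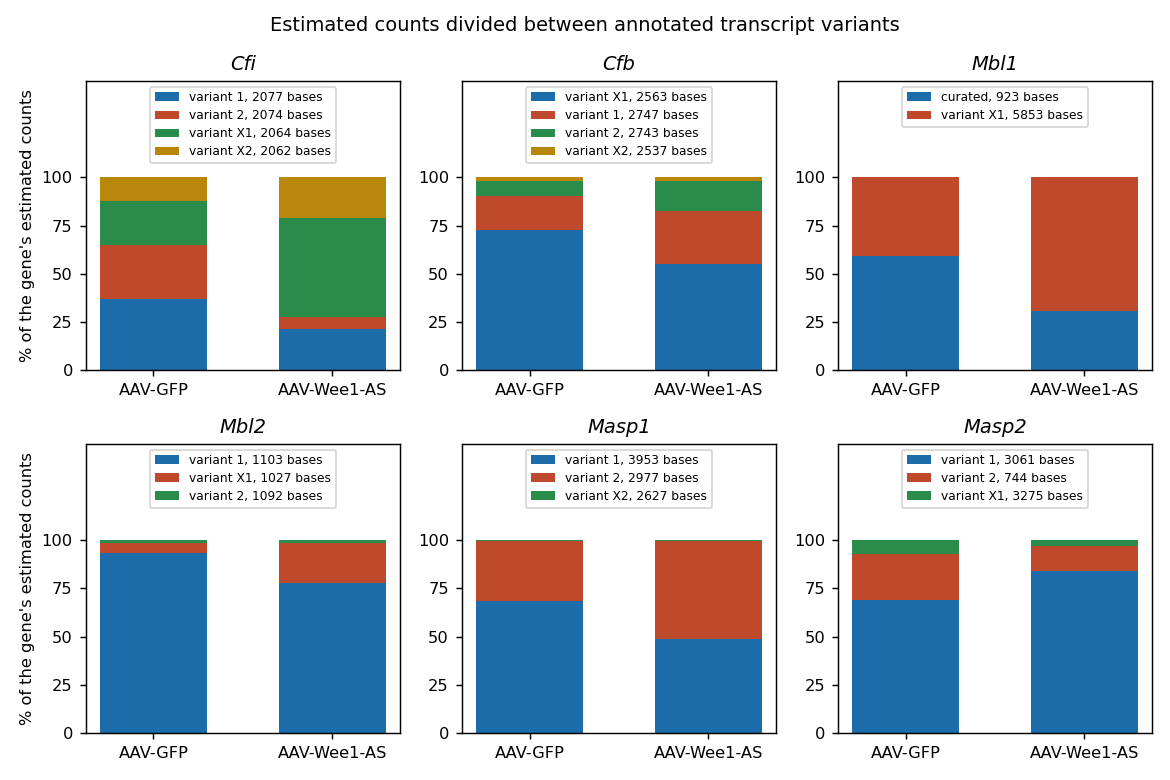
Share of the estimated counts of a gene given to each annotated transcript, in percent, for 6 members in the AAV-GFP and AAV-Wee1-AS libraries. In Cfi the predicted variant X1 holds 23.1% and 51.6%, in Mbl1 the curated transcript holds 59.5% and 30.8%, and in Masp1 variant 1 holds 68.4% and 48.6%.

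Of 73 further genes of the pathways, listed by function, 66 were kept, of which 13 had a ratio above 2 and 13 a ratio below 0.5, with a median of -0.05, beside 22.2% and 8.71% of all genes. With the trends removed, 1 was above 2 and 15 were below 0.5, beside 6.61% and 7.88% of all genes. The higher ones included the collectins Colec10 (199 and 1158 counts, log2 ratio 2.79, the highest) and Colec12 (815 and 2039, 1.58), the complement receptor Vsig4 (649 and 1550, 1.52), which is also a Kupffer cell gene, and Cd55 (255 and 461, 1.11). In coagulation F8, the cofactor of factor IXa, had 314 and 786 counts (1.58), Tfpi2 1044 and 1827 (1.07) and the thrombin receptor F2r 715 and 1204 (1.01). With the trends removed, Colec10 stood at 1.23, Colec12 at 0.99, Vsig4 at 0.79 and F2r at 0.41, while Cd55 (-0.19), F8 (-0.52) and Tfpi2 (-0.18) changed sign. Of 7 genes that serve the carboxylation and export of clotting factors, 2 were higher and 5 lower, with a median log2 ratio of -0.14. The higher genes, Vkorc1l1 (1.3) and Lman1 (1.03), the carrier of factors V and VIII, were above 2, and 0 were below 0.5. Vkorc1 stood at -0.62. The values of Vkorc1l1, Lman1 and Vkorc1 were 0.08, 0.34 and -0.0100 with the trends removed.

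Of the 6 fibrinolysis activators and receptors, 5 had a ratio below 0.5, beside 8.71% of all genes. Anxa2, a surface receptor for plasminogen, had 8598 and 1654 counts (log2 ratio -2.11), Plaur, the urokinase receptor, 181 and 21 (-2.74), and Plau, urokinase itself, 199 and 79 (-1.05). Plat, the tissue-type activator, had 107 and 34 counts (-1.34) and Thbs1 308 and 83 (-1.61). Thbd, thrombomodulin, a coagulation inhibitor of the endothelium, had 363 and 140 counts (-1.10). With the trends removed the 5 fibrinolysis genes were again below 0.5 (log2 ratios from -2.17 for Plaur to -1.28 for Plau), as was Thbd (-1.09). Itgax, an integrin receptor chain for C3 fragments and a marker of macrophages, had 421 and 73 counts (-2.24). Of the abundant inhibitors made by hepatocytes, Serpinc1, antithrombin, had 138933 and 91778 counts (-0.33, and -1.27 with the trends removed). Serping1, the C1 inhibitor, had a log2 ratio of -0.01 (0.39 with the trends removed), and Clu, clusterin, had 146737 and 89280 counts (-0.45, and 0.19).

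The libraries held the defining genes of hepatocytes at high level, as the tissue label says, with 2542754 and 3065513 counts for Alb. Of the 9 hepatocyte genes kept, 2 were above 2 and 0 below 0.5, beside 22.2% and 8.71% of all genes, with a median of -0.01, and the log2 ratios ran from -0.62 for Ttr to 1.82 for Apob. With the trends removed, 0 were above 2 and 1 below 0.5, beside 6.61% and 7.88% of all genes, with Ttr at -1.03 and Apob at -0.08. Platelet genes, whose products act with the clotting factors, were low, at a summed 3.07 and 1.60 FPKM, with 62 and 28 counts for Pf4.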

How the data were processed

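The liver libraries (poly-A selected, stranded, paired reads of 100 bases) were processed by the authors. The submitters' processing notes name Trimmomatic 0.38, HISAT2 2.1.0, SAMtools 1.9, StringTie 2.1.3b and the build mm10. The deposited table gives, for 129299 RefSeq transcripts, estimated counts (whole numbers as deposited, so not rounded again), FPKM and TPM per library; the authors' normalization of the FPKM and TPM values is per transcript length and library. Counts were summed per gene symbol and scaled by TMM (edgeR 4.0.16, over all genes). Genes under 10 counts in both libraries were left out. Log2 ratios used a prior count of 2, and a ratio above 2 or below 0.5 was counted. FPKM was summed per symbol. GC content and length came from the GENCODE M21 transcript nearest in length (15109 genes), and trends were removed by lowess (span 0.3, 5 cycles, statsmodels 0.14.6). Alternatives covered scaling (DESeq2 1.42.0 and others), filter, prior count, unit, trends and transcripts. Scripts were tested on simulated data. Every member was named, with further genes of at least 100 counts past 2-fold or among the most abundant 3 of a list. The members and lists were chosen with earlier results of these data known. Some genes of the further pathway lists are counted but not reported by name here.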

Additional observations from a re-analysis of the deposited data

How the results depend on the processing

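Of 418 member values under alternative settings, 203 stayed within the counting interval of the reported log2 ratio, 213 moved beyond it, and 2 values of members reported above 2-fold changed sign: with the GC and length trends removed Klkb1 stood at -0.15 and F5 at -0.11. Counting members inside 2-fold too, the sign changed for 14 members in that setting, for 6 with upper-quartile scaling, 5 with the length trend removed, 3 with FPKM, 2 each with TPM and library totals and 1 with the most abundant transcript. That setting left 1 member above 2-fold, also where the longest transcript of each gene was used (an alternative chosen after seeing the data), and gave coagulation medians of 0.24 and 0.28. Upper-quartile scaling put 1 member below 0.5 and gave medians of 0.020 for all members, -0.017 for complement and 0.27 for coagulation, because it shifts every gene alike. With the most abundant transcript alone the medians were 0.41 for all members and 0.32 for complement, and Cfi joined the members above 2-fold. Between 7 and 11 members were above 2-fold under the other settings (10 as reported). No paired analysis was possible because each group is 1 library, and no library could be left out. Leaving out the members with near-identical relatives (chosen after seeing the data) and moving Vtn between lists shifted no median by more than 0.1. What depth limits here is Cfd alone, with an interval 0.38 wide.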

Other observations

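Markers of other liver cells were measured beside the members. Of 8 hepatic stellate cell genes, 2 had a ratio above 2 and 3 a ratio below 0.5 (beside 22.2% and 8.71% of all genes). Above 2 were Lrat (267 and 617 counts, AAV-GFP and AAV-Wee1-AS) and Rgs5 (540 and 1351). Below 0.5 were Col1a1 (3620 and 603), Col3a1 (9104 and 1858) and Pdgfrb (1129 and 441), while Dcn had 4590 and 4823. With the GC and length trends removed, 0 of the 8 were above 2 and 2 below 0.5, beside 6.61% and 7.88% of all genes. Of 7 endothelial genes none passed 2-fold in either direction, with a median log2 ratio of -0.09. Of 6 cholangiocyte genes 5 were kept and none passed 2-fold. The 5 erythroid genes kept, of 6, had log2 ratios from -0.93 to -0.10, with 20325 and 8855 counts for Hbb-bs, and their median was 0.04 with the GC and length trends removed. Lymphocyte genes were at 280 and 211 counts in sum over 8 genes.

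At the level of transcripts, F11 predicted variant X3 had 0 and 374 counts and variant X1 321 and 79, while its curated transcript had 876 and 1813. Proc curated variant 3 had 808 and 64 counts.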
